A study of Fragaria x ananassa with 6 samples.

Results

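Anthocyanins, the red pigments of ripe strawberry, are made by a chain of enzymes of the flavonoid pathway. Chalcone synthase (CHS) makes the first flavonoid intermediate, flavanone 3-hydroxylase (F3H) and dihydroflavonol 4-reductase (DFR) convert it further, anthocyanidin synthase (ANS) makes the coloured anthocyanidin, and a UDP-glucose:flavonoid glucosyltransferase (UFGT) adds the sugar that stabilises it. MYB10, a transcription factor of the R2R3-MYB family, is known as an activator of the pathway in strawberry fruit. RAP, a glutathione S-transferase named after a woodland strawberry mutant with reduced anthocyanins in petioles, is needed for transport of the pigment into the vacuole.

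Expression of these 7 genes was examined in the receptacle, the swollen flower base that forms the flesh, in cultivar Chandler of Fragaria x ananassa, the garden strawberry. The FaWRKY71-RNAi genotype (3 libraries) carried a stably integrated pFRN silencing vector with a conserved stretch of FaWRKY71 coding sequence, from a gene for a WRKY transcription factor, introduced with Agrobacterium tumefaciens strain AGL0. The Control genotype (3 libraries) carried the empty pFRN vector, and the plants of both genotypes were left untreated. Poly(A)-selected RNA was sequenced with a strand-specific kit. The promoter of the vector, the number of transgenic lines and the stage of the fruit are not stated in the labels, so a difference between the groups in line or stage cannot be told apart from genotype.

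The members were the 7 rows FvH4_1g22020.1 (MYB10), FvH4_1g27460.1 (RAP), FvH4_7g01160.1 (CHS), FvH4_1g11810.1 (F3H), FvH4_2g39520.1 (DFR), FvH4_5g01170.1 (ANS) and FvH4_7g33840.1 (UFGT), out of 28588 IDs in the deposited table. The names are those used for these woodland strawberry IDs when the genes were chosen. IDs are not paired with names in the count table or in the reference at hand, so the names, the tissue label, the other genes of the pathway and the level of FaWRKY71 itself could not be checked and were not analysed here. Cultivated strawberry is octoploid, and 1 ID may collect reads from several near-identical copies of a gene. All 7 members passed the filter on low counts, as did 15547 IDs in all. The lowest count of any member in any library was 2308, for which counting noise alone is 2.08%.

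The libraries held 8385218 to 9498057 counts in FaWRKY71-RNAi and 9320022 to 10000538 in Control. The spread between libraries beyond counting noise, edgeR's biological coefficient of variation, was 26.7% in FaWRKY71-RNAi and 6.56% in Control. Levels are given as CPM, counts per 1000000 counts of a library size scaled with TMM (trimmed mean of M-values) factors, and a call is a Benjamini-Hochberg adjusted p below 0.05 from edgeR's quasi-likelihood test over all tested IDs. By this rule 54.3% of all tested IDs were called, 30.1% higher and 24.2% lower in FaWRKY71-RNAi. The labels speak of independent biological replicates without saying whether these were plants, fruits or lines.

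The 7 genes followed 3 patterns. The regulator MYB10 was higher in FaWRKY71-RNAi receptacles than in controls, in all 3 libraries. The enzyme genes ANS and UFGT were lower, in all 3 libraries. CHS, F3H, DFR and the transporter RAP were above every control in FaWRKY71-RNAi replicates 1 and 3 and below every control in replicate 2 (for F3H not with library size alone as the scaling), and none of these 4 passed the test. In total 1 member was called higher and 2 lower, that is 42.9% of the members against 54.3% of all tested IDs, so the number of calls does not set the members apart. The genotypes did not overlap for 3 members (42.9%), against 64.7% of all tested IDs. Of these, 1 member lay higher and 2 lower in FaWRKY71-RNAi, against 33.9% and 30.8% of all tested IDs. The median log2 fold change was 0.28 over the members and 0.03 over all tested IDs. Without FaWRKY71-RNAi replicate 2 these medians were 0.61 and 0.014. That library was singled out after its values were seen, and CHS, F3H, DFR and RAP were lowest in it.

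**Figure D1:**
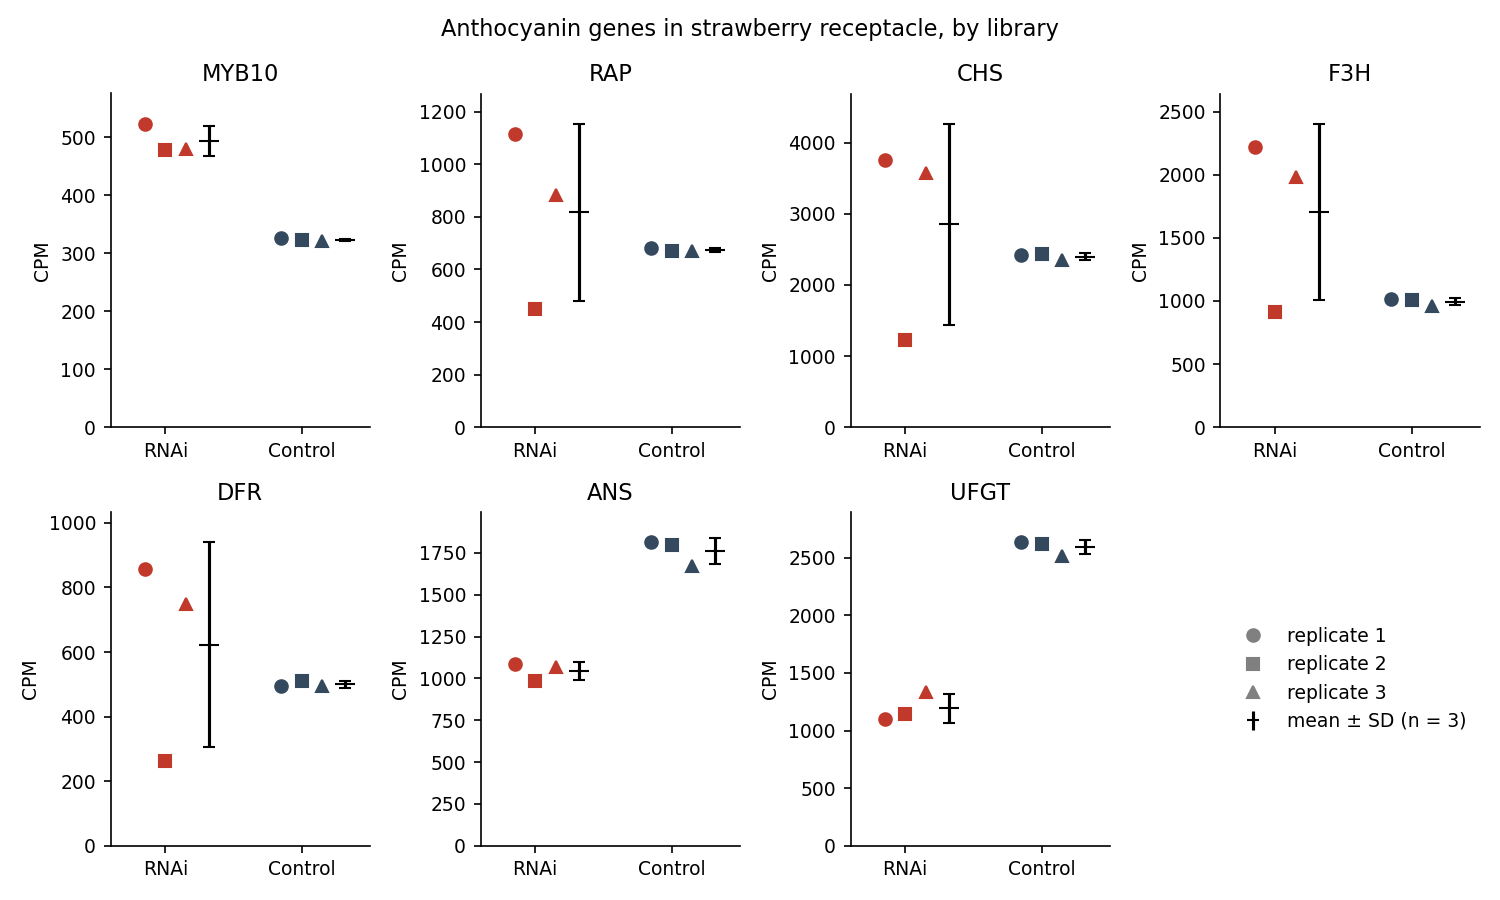
Level of each gene in CPM (vertical axes, linear, from 0) in the 3 FaWRKY71-RNAi libraries (red, left) and the 3 Control libraries (dark, right), with a symbol for each replicate number and the mean ± SD (n = 3) beside each group. MYB10 lies at 478.2 to 523.5 CPM in FaWRKY71-RNAi and at 321.3 to 325.7 CPM in Control, whereas RAP, CHS, F3H and DFR have a low FaWRKY71-RNAi replicate 2 and ANS and UFGT are low in all 3 FaWRKY71-RNAi libraries.

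MYB10 stood at 523.5, 478.2 and 479.3 CPM in FaWRKY71-RNAi replicates 1 to 3, and at 325.7, 322.5 and 321.3 CPM in Control replicates 1 to 3. The FaWRKY71-RNAi libraries lay close together and entirely above the controls, with a coefficient of variation of 5.24% in FaWRKY71-RNAi and 0.706% in Control. The mean was 493.6 ± 25.9 CPM in FaWRKY71-RNAi and 323.2 ± 2.28 CPM in Control (SD, n = 3 each), a 1.53-fold rise with a 95% interval from 1.36 to 1.72 (log2 fold change 0.61, SE 0.07; edgeR adjusted p = 0.000475). An exact two-sided permutation test on the 6 libraries gave p = 0.1, the smallest that 3 against 3 libraries allow. Of all tested IDs, 71.9% had a lower log2 fold change than MYB10, so a rise of this size was common in these libraries.

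CHS, the entry enzyme, had 3762, 1224 and 3568 CPM in FaWRKY71-RNAi replicates 1 to 3, against 2415, 2433 and 2347 CPM in Control replicates 1 to 3. Replicates 1 and 3 of FaWRKY71-RNAi were above the controls and replicate 2 was 47.8% below the lowest control. The mean was 2852 ± 1413 CPM in FaWRKY71-RNAi and 2398 ± 45.4 CPM in Control (SD, n = 3 each). The fitted fold was 1.19 with a 95% interval from 0.596 to 2.37 (edgeR adjusted p = 0.63), which leaves room for a fall as well as for a rise of more than 2-fold.

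F3H, which adds a hydroxyl group to flavanones, had the highest fitted fold of the 7 genes. Its levels were 2223, 914.5 and 1982 CPM in FaWRKY71-RNAi replicates 1 to 3, and 1013, 1004 and 962.8 CPM in Control replicates 1 to 3. Replicates 1 and 3 of FaWRKY71-RNAi were well above every control, while replicate 2 was 5.02% below the lowest control. The mean was 1706 ± 696.4 CPM in FaWRKY71-RNAi and 993.3 ± 26.8 CPM in Control (SD, n = 3 each). The fold was 1.72 with a 95% interval from 1.002 to 2.94 for this gene alone, and the call was missed after adjustment over all IDs (log2 fold change 0.78, SE 0.32; edgeR adjusted p = 0.0824). DESeq2 called it, with a log2 fold change of 0.76 and an adjusted p of 0.0319. Of 17 alternative settings, only 2 called F3H, DESeq2 and the fit without FaWRKY71-RNAi replicate 2.

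DFR, which reduces dihydroflavonols, had the widest spread of the members. It stood at 856.4, 261.5 and 750.0 CPM in FaWRKY71-RNAi replicates 1 to 3, against 494.1, 511.0 and 493.8 CPM in Control replicates 1 to 3. The highest FaWRKY71-RNAi library exceeded the lowest 3.27-fold, whereas the controls differed by at most 1.03-fold. The mean was 622.6 ± 317.2 CPM in FaWRKY71-RNAi and 499.7 ± 9.85 CPM in Control (SD, n = 3 each), with a fitted fold of 1.25 and a 95% interval from 0.614 to 2.53 (edgeR adjusted p = 0.549).

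RAP, the transporter gene, had 1115, 450.8 and 884.8 CPM in FaWRKY71-RNAi replicates 1 to 3, against 681.2, 670.3 and 670.5 CPM in Control replicates 1 to 3. Again FaWRKY71-RNAi replicates 1 and 3 lay above all controls and replicate 2 lay below them, here by 32.7% of the lowest control. The mean was 816.8 ± 337.1 CPM in FaWRKY71-RNAi and 674.0 ± 6.23 CPM in Control (SD, n = 3 each), a fitted fold of 1.21 with a 95% interval from 0.716 to 2.05 (edgeR adjusted p = 0.484).

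ANS, the enzyme that forms the anthocyanidin, was at 1085, 985.6 and 1069 CPM in FaWRKY71-RNAi replicates 1 to 3, and at 1814, 1800 and 1673 CPM in Control replicates 1 to 3. Every FaWRKY71-RNAi library, replicate 2 included, was well below every control. The mean fell to 1047 ± 53.5 CPM in FaWRKY71-RNAi, against 1762 ± 77.3 CPM in Control (SD, n = 3 each). The log2 fold change was -0.75 (SE 0.08), a level 0.594 times that of the controls with a 95% interval from 0.524 to 0.673 (edgeR adjusted p = 0.000243). ANS varied by 5.11% among the FaWRKY71-RNAi libraries and by 4.38% among the controls.

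UFGT, the glucosyltransferase, showed the largest fall of the 7 genes. It had 1100, 1144 and 1334 CPM in FaWRKY71-RNAi replicates 1 to 3, against 2635, 2622 and 2520 CPM in Control replicates 1 to 3, with no overlap between the genotypes. The mean was 1193 ± 124.7 CPM in FaWRKY71-RNAi and 2592 ± 62.6 CPM in Control (SD, n = 3 each). The log2 fold change was -1.12 (SE 0.09), a level 0.46 times that of the controls with a 95% interval from 0.395 to 0.535 (edgeR adjusted p = 9.69e-05). Of all tested IDs, 9.08% had a lower log2 fold change than UFGT, and 16.6% a lower one than ANS. The deposited counts of UFGT were fractions in all 6 libraries, as can arise when reads are shared between similar IDs. Its level may be less certain for that reason. The counts of the other 6 members were whole, which does not show that their reads came from 1 gene copy.

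The libraries are bulk tissue, in which fewer cells of a type and less RNA per cell cannot be told apart. The exact permutation p was 0.1 for MYB10, ANS and UFGT, and between 0.4 and 1 for CHS, F3H, DFR and RAP.

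**Figure D2:**
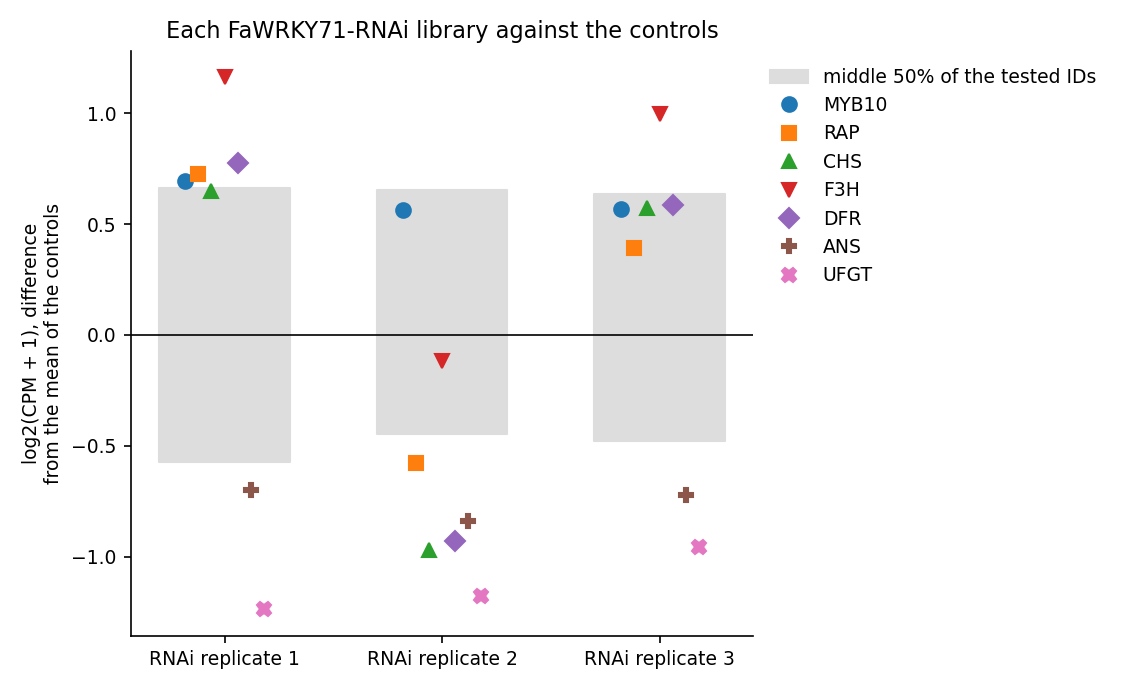
Difference of each gene from the mean of the 3 controls, in log2(CPM + 1), in each of the 3 FaWRKY71-RNAi libraries (horizontal axis, 1 symbol per gene); grey boxes hold the middle 50% of the 15547 tested IDs in that library. In replicate 2, CHS, DFR and RAP are on the side of ANS and UFGT, F3H is at -0.12, and MYB10 alone is above 0, at 0.56.

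Set against the control mean library by library, MYB10 was higher by 0.69, 0.56 and 0.57 on the log2(CPM + 1) scale in FaWRKY71-RNAi replicates 1 to 3. CHS differed from the control mean by 0.65, -0.97 and 0.57 and DFR by 0.78, -0.93 and 0.59. RAP differed by 0.72, -0.58 and 0.39, and F3H by 1.16, -0.12 and 0.996. These 4 genes thus had their lowest FaWRKY71-RNAi level in replicate 2, while MYB10, in the same library, was as far above the controls as in replicate 3. In replicate 2, 8.1% of all tested IDs had a lower difference than CHS, 8.81% than DFR, 19.0% than RAP and 41.1% than F3H, so F3H was near the middle of all IDs there. For MYB10 this share was 72.1%. ANS differed by -0.70, -0.84 and -0.72 and UFGT by -1.24, -1.18 and -0.96, so neither shared the large gap between replicate 2 and the others.

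A level above all controls in FaWRKY71-RNAi replicates 1 and 3 and below all controls in replicate 2 was seen in 428 of the 15547 tested IDs (2.75%), and the opposite arrangement in 509 (3.27%). The 4 members are 57.1% of the genes examined here. This arrangement was picked out after the values were seen, so these shares are a description. With library size alone as the scaling, F3H in replicate 2 was no longer below every control, while CHS, DFR and RAP still were. Among the 2097 tested IDs with a mean of at least 100 CPM, the ratio of the highest to the lowest FaWRKY71-RNAi library had a median of 1.23, and the ratio over the controls a median of 1.06. The FaWRKY71-RNAi ratio was 3.27 for DFR, 3.07 for CHS, 2.47 for RAP and 2.43 for F3H. Between 91.0% and 94.2% of these abundant IDs had a smaller ratio than those 4 genes. It was 1.21 for UFGT, 1.10 for ANS and 1.09 for MYB10, and 45.9%, 21.5% and 19.6% of the abundant IDs had a smaller one.

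**Figure D3:**
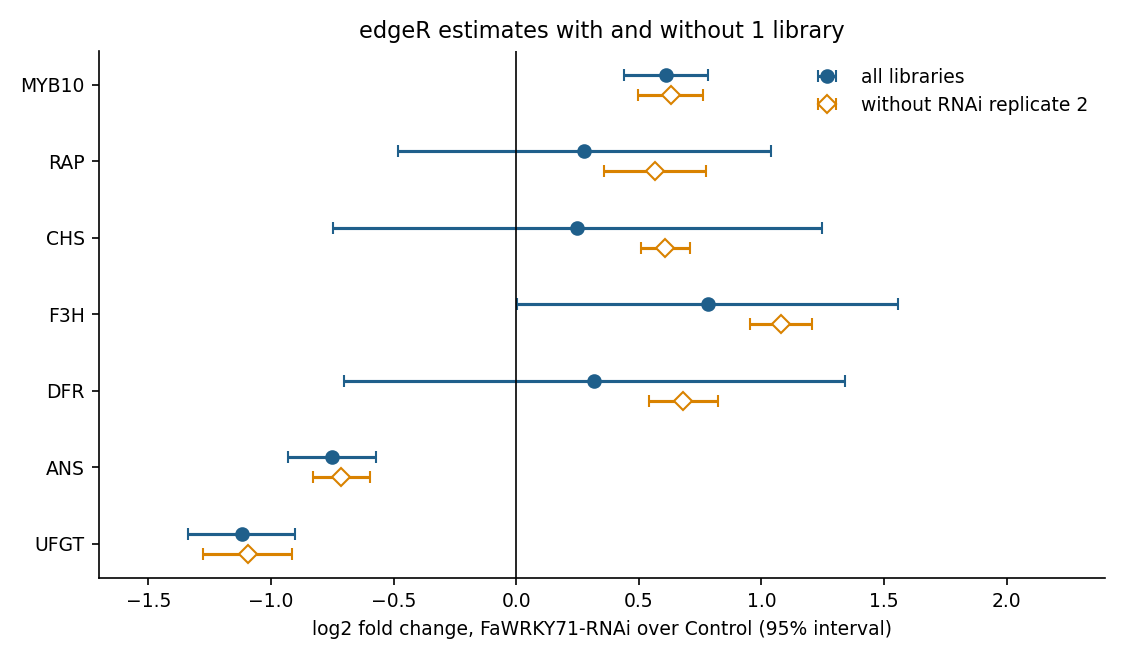
Fitted log2 fold change of FaWRKY71-RNAi over Control (horizontal axis) with its 95% interval from edgeR, for all 6 libraries (filled circles) and without FaWRKY71-RNAi replicate 2 (open diamonds). MYB10, ANS and UFGT hardly move, and the intervals of RAP, CHS and DFR reach both sides of 0 only with all libraries.

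The calls of CHS, F3H, DFR and RAP turned on FaWRKY71-RNAi replicate 2. Without it, all 7 members were called, 5 higher and 2 lower, where 64.1% of the 15967 IDs then tested were called, 33.8% higher and 30.3% lower. F3H was then 2.11-fold higher (log2 fold change 1.08, SE 0.06; edgeR adjusted p = 4.18e-08). DFR was 1.60-fold higher (edgeR adjusted p = 3.74e-06), CHS 1.52-fold (adjusted p = 5.48e-07) and RAP 1.48-fold (adjusted p = 0.000824). These values rest on 2 FaWRKY71-RNAi libraries, and replicate 2 was singled out after its values were seen. Without FaWRKY71-RNAi replicate 1, by contrast, the fitted log2 fold changes of CHS and RAP were -0.0068 and -0.021, and 3 members were called, as with all libraries. What distinguished replicate 2 from the other FaWRKY71-RNAi libraries (fruit stage, plant or line) was not tested.

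Together the 7 genes took 1.13%, 0.575% and 1.05% of all counts in FaWRKY71-RNAi replicates 1 to 3, against 0.890%, 0.890% and 0.848% in Control replicates 1 to 3. Their share was thus highest and lowest in FaWRKY71-RNAi libraries, with the controls in between. The mean share was 0.917% ± 0.299 in FaWRKY71-RNAi and 0.876% ± 0.024 in Control (SD, n = 3 each), with p = 1 from the two-sided exact permutation test.

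Ratios of the counts of 2 genes within 1 library do not depend on the scaling between libraries, and the 21 ratios among the members were compared between genotypes. A ratio of counts also holds the lengths of the 2 genes, so only its difference between libraries is read. The genotypes did not overlap for 12 of the 21 ratios (57.1%), 10 higher and 2 lower in FaWRKY71-RNAi. For all 2197656 pairs of IDs with a mean of at least 100 CPM the share was 69.1%, so unequal change was not more frequent among the members. No ratio could pass the test, since the smallest exact permutation p was 0.1 and the smallest value adjusted over the 21 ratios was 0.175.

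MYB10 and ANS stood in another proportion in each FaWRKY71-RNAi library than in the controls. The ratio of MYB10 to ANS counts was 0.482, 0.485 and 0.448 in FaWRKY71-RNAi replicates 1 to 3 and 0.180, 0.179 and 0.192 in Control replicates 1 to 3, 2.57-fold higher on average (exact permutation p = 0.1, n = 3 each). The ratio of MYB10 to UFGT was 3.33-fold higher on average, at 0.476, 0.418 and 0.359 in FaWRKY71-RNAi and 0.124, 0.123 and 0.127 in Control. The ratio of ANS to UFGT was also higher in each FaWRKY71-RNAi library, at 0.987, 0.862 and 0.801 in FaWRKY71-RNAi and 0.688, 0.686 and 0.664 in Control.

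CHS and DFR, in contrast, kept nearly the same proportion while their levels differed up to 3.07-fold and 3.27-fold between libraries. The ratio of CHS to DFR counts was 4.39, 4.68 and 4.76 in FaWRKY71-RNAi replicates 1 to 3 and 4.89, 4.76 and 4.75 in Control replicates 1 to 3, and the genotypes overlapped. F3H did not keep to this proportion. The ratio of CHS to F3H was 1.69, 1.34 and 1.80 in FaWRKY71-RNAi, below all controls at 2.38, 2.42 and 2.44. The ratio of F3H to DFR was 2.60, 3.50 and 2.64 in FaWRKY71-RNAi, above all controls at 2.05, 1.96 and 1.95. Relative to CHS and DFR, F3H was therefore higher in all 3 FaWRKY71-RNAi libraries, replicate 2 included, although its own level in that library was close to the controls. The ratio of RAP to F3H was likewise lower in each FaWRKY71-RNAi library, at 0.501, 0.493 and 0.447, against 0.672, 0.668 and 0.696 in Control.

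**Figure D4:**
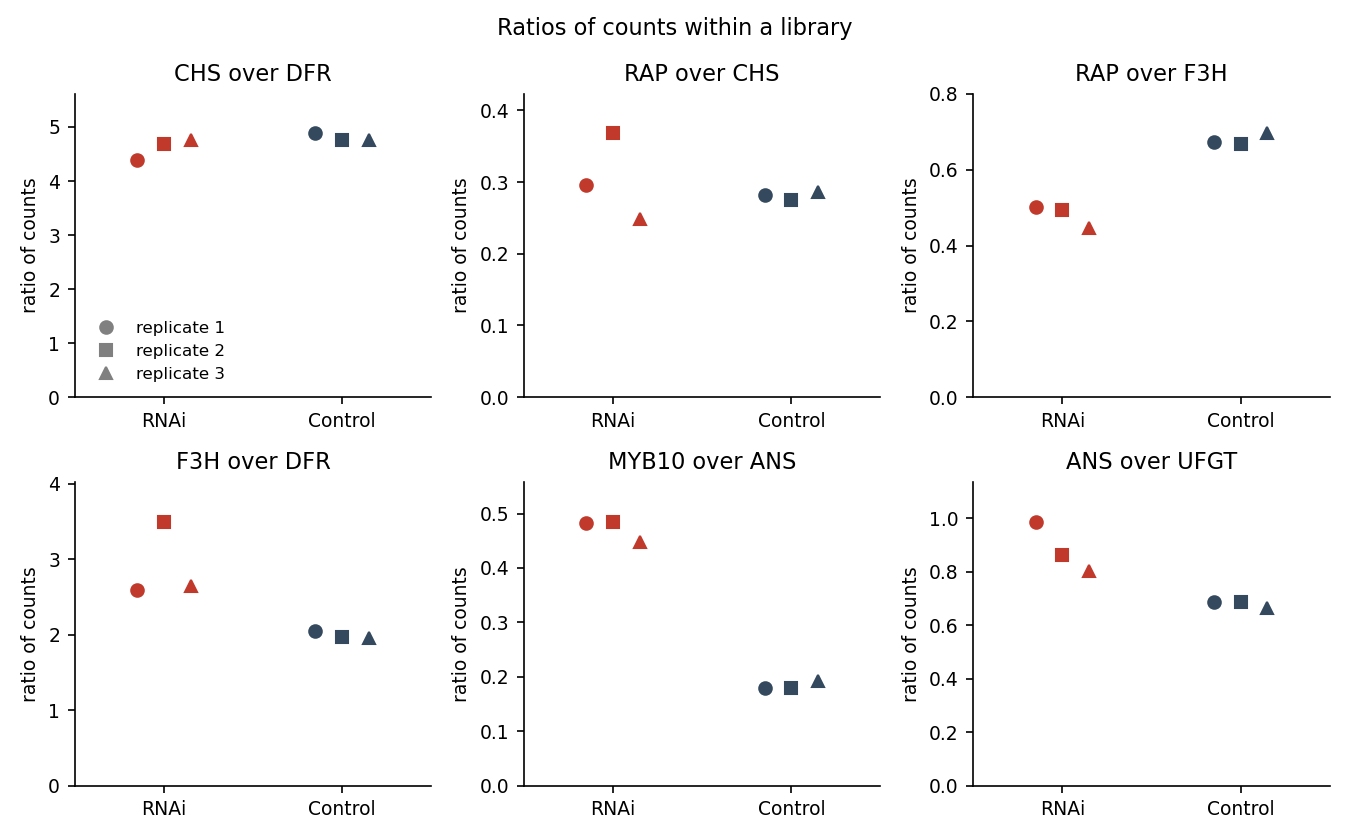
Ratio of the counts of 2 genes within each library (vertical axes, linear, from 0) for 6 of the 21 ratios, with FaWRKY71-RNAi libraries in red on the left and Control libraries in dark on the right, and a symbol for each replicate number. CHS over DFR lies between 4.39 and 4.89 in all 6 libraries, while MYB10 over ANS is 0.448 to 0.485 in FaWRKY71-RNAi and 0.179 to 0.192 in Control.

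The likeness of profiles was described by the distance between log2(CPM + 1) values over the 6 libraries, each profile centred on its control mean, among IDs with a mean of at least 10 CPM. All profiles share the same libraries and genotypes, so no test is attached. Of 9609 other IDs, DFR was the nearest to CHS and CHS the nearest to DFR, also by Pearson correlation. Without FaWRKY71-RNAi replicate 2, DFR ranked 89 from CHS and CHS ranked 77 from DFR among 9513 IDs, so their first rank rests on that library. From RAP, DFR ranked 67 and CHS 80. F3H stood further off, at rank 326 from DFR and 652 from CHS. Without that library DFR ranked 170 and CHS 153 from RAP, and F3H ranked 1928 from DFR and 2548 from CHS. UFGT ranked 1702 from ANS and ANS 574 from UFGT with all libraries, and 2267 and 999 without FaWRKY71-RNAi replicate 2. From MYB10, the closest member with all libraries was F3H, at rank 2810. Without FaWRKY71-RNAi replicate 2, CHS ranked 7, DFR 28, RAP 243 and F3H 2362 from MYB10, while ANS ranked 7412 and UFGT 8418. MYB10 was then the nearest ID to CHS, at rank 1. This setting leaves out the library in which CHS, DFR and RAP lay below the controls and MYB10 above them. The closer ranks of CHS, DFR and RAP thus rest on its omission.

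The 2 IDs nearest to MYB10 by this distance were FvH4_6g27390.1 and FvH4_1g05050.1, which have no names here. FvH4_6g27390.1 had 324.8, 287.9 and 297.9 CPM in FaWRKY71-RNAi and 203.2, 197.3 and 198.1 CPM in Control, with a log2 fold change of 0.61 (edgeR adjusted p = 0.00063). FvH4_1g05050.1 had 105.3, 89.9 and 92.9 CPM in FaWRKY71-RNAi and 63.4, 63.7 and 61.8 CPM in Control, also with a log2 fold change of 0.61 (edgeR adjusted p = 0.00102). Both were picked for their small distance to MYB10 over these same values. Their fold, their adjusted p and their evenness among the FaWRKY71-RNAi libraries therefore follow from the choice. By Pearson correlation, neither was among the 2 nearest.

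The neighbours of the members by gene number were called about as often as other IDs. Of the 70 tested IDs that are the 5 nearest on either side of a member in the same numbered series, 18 were called higher and 18 lower, that is 51.4%, against 54.3% of all tested IDs. Around MYB10, 4 of 10 neighbours were called higher and the others were not called. Around DFR, whose own fold did not pass the test, 1 of 10 was higher and 6 were lower. Around UFGT 3 were higher and 3 lower, around ANS 4 and 3, around CHS 3 and 2, around RAP 2 and 3, and around F3H 1 and 1. Of all tested IDs, 30.1% were called higher and 24.2% lower, and no difference for a single member's neighbours was tested. The arrangement of CHS, F3H, DFR and RAP across the FaWRKY71-RNAi libraries was found in 5 of the 70 neighbours (7.14%), against 2.75% of all tested IDs. Of these 5, 2 lay beside CHS, 1 beside F3H and 2 beside DFR, and the difference between the shares was not tested.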

How the data were processed

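Messenger RNA was measured in 6 receptacle libraries, 3 per genotype. The authors deposited 1 table of estimated counts per ID, without scaling between libraries as far as the values show. Per the labels' protocols, libraries were poly(A)-selected, strand-specific and read as pairs; no source used here names the aligner, the counter, the build or the annotation. Columns were matched to samples by library name; the replicate numbers of the control columns are uncertain, because 1 column name also resembles another control's title.

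Estimated counts were rounded to whole numbers, filtered with filterByExpr, scaled by TMM and tested over all 6 libraries by the robust quasi-likelihood method of edgeR 4.0.16 (R 4.3.3), with no term other than genotype. The standard error comes from the fitted coefficient and its F statistic. Alternatives used other scalings, filters and thresholds, DESeq2 1.42.0, limma 3.58.1, unrounded counts, a replicate block and each library left out. The intervals given for the fold changes use the standard error of the fit, and so take in the spread between libraries. The counting noise given for the members covers counting error only. The named IDs are the 7 members and the 2 IDs nearest to MYB10; members and lists were chosen with earlier results of these data known. Of the 28588 IDs, 0 matched the reference table of 77630 genes of another strawberry assembly.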

Additional observations from a re-analysis of the deposited data

How the results depend on the processing

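MYB10, ANS and UFGT kept their direction and their call in all 17 alternatives, with log2 fold changes between 0.51 and 0.76, between -0.85 and -0.60, and between -1.22 and -0.97. The median of all IDs shifted by -0.10 with upper-quartile scaling and by 0.15 with library size alone, on the log2 scale. Leaving out 1 library changed the rest: the log2 fold change ranged from -0.021 to 0.57 for RAP, from -0.0068 to 0.61 for CHS, from 0.54 to 1.08 for F3H and from 0.012 to 0.68 for DFR, and the upper values, all without FaWRKY71-RNAi replicate 2, passed the test. RAP and CHS turned round without FaWRKY71-RNAi replicate 1. Over these fits 3 to 7 members were called, 1 to 5 of them higher. DESeq2 called F3H as well (log2 fold change 0.76), so 2 members were higher. No other alternative that kept all libraries called F3H. Requiring a 2-fold change left 1 member, UFGT, with 0 higher (MYB10 had a fold of 1.53) and 1 lower, and 4241 of 8435 called IDs. The separated ratios numbered 12 to 16 when a library was left out. None of the 2 IDs nearest to MYB10 (0) was shared with the correlation measure and 1 remained without FaWRKY71-RNAi replicate 2, an alternative chosen after seeing the data. With the replicate block 7611 IDs and the same 3 members were called. Same-numbered libraries deviated together at r = 0.11, -0.06 and 0.03, and the numbers were not taken as pairs. Because the control replicate numbers are uncertain, these values cannot show whether libraries were paired. The causes were not tested. Counting noise at this depth was at most 2.08% for a member.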
